A study of Mus musculus with 12 samples.

Results

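The genes *Mpo*, *Elane*, *Prtn3*, *Ctsg*, *Prss57* and *Ms4a3* were read from a table of RNA-seq counts by their symbols, and 6 of the 54532 genes listed there were taken. All 6 had enough reads to be tested. The first 5 encode proteins of the primary granules of neutrophils. *Ms4a3* encodes a membrane protein of granulocyte-monocyte progenitors and not a granule enzyme, so it is described as a gene of the same stage.

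Marrow of wild-type (WT) C57BL/6 mice was the source of all 12 libraries. All cells were cultured for 5 days with GM-CSF and IL-6, cytokines that drive granulocytes, monocytes and macrophages to form. The groups were vehicle (DMSO), 10 µM IPA and 50 µM IPA, with 4 libraries in each, and the question was how IPA (indole-3-propionic acid, a bacterial product of tryptophan) changes the myeloid cells that form. The cells were not sorted before RNA extraction, and the mice of the study were females of 8 to 14 weeks by its methods, which do not list these donors apart. The higher dose is described in the study as above the physiological range and as lowering the viability of the cells. Viability is not among the values analysed here, and its part in the values was not tested. The study calls the replicates of its cell counts from such cultures biological, but does not say this of the RNA-seq libraries or whether those of a group came from separate animals. The p-values therefore measure the spread between these libraries, which may be technical.

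Primary (azurophil) granules are filled at the promyelocyte stage, when these genes are strongly transcribed, and transcription is shut down as the cells mature. The proteins persist in granules long after their mRNA has gone. Myeloperoxidase makes hypochlorous acid from hydrogen peroxide and chloride. Neutrophil elastase (*Elane*), proteinase 3 (*Prtn3*) and cathepsin G (*Ctsg*) are serine proteases that digest microbial and matrix proteins. *Prss57* encodes another serine protease.

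In the annotation of GRCm38 (GENCODE M21), *Prss57* (ENSMUSG00000020323, chr10:79781474-79790961, minus strand), *Prtn3* (ENSMUSG00000057729, chr10:79874476-79883174, plus strand) and *Elane* (ENSMUSG00000020125, chr10:79886247-79888215, plus strand) lie close together on chromosome 10. *Mpo* (ENSMUSG00000009350) is at chr11:87793581-87804413 on the plus strand. *Ctsg* (ENSMUSG00000040314) is at chr14:56099881-56102574 on the minus strand. *Ms4a3* (ENSMUSG00000024681) is at chr19:11629496-11640851 on the minus strand.

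The bases before the transcription start are shown because the 6 genes moved together at 50 µM, and to let their shared letters be seen. RefSeq windows (GRCm38.p6) matched 5 of the 6 genes by symbol, and *Prss57* had no entry. Windows reach up to 250 bases upstream of the RefSeq start, without bases annotated as exon, and run 5′ to 3′ on the strand of the gene. Capitals mark GAGGAAGT, a PU.1-type site, GGAAGT, the ETS core that the former contains, and ACCACA, the minus-strand form of the RUNX-type TGTGGT.
Mpo: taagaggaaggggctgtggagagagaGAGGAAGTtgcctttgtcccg
Elane: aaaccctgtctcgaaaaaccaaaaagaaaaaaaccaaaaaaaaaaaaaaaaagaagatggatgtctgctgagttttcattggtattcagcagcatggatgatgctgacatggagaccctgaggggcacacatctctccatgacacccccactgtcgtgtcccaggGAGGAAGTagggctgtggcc
Prtn3: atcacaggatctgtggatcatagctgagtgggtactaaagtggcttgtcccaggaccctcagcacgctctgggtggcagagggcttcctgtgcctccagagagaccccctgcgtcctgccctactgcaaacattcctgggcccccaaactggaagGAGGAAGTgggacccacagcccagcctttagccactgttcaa
Ctsg: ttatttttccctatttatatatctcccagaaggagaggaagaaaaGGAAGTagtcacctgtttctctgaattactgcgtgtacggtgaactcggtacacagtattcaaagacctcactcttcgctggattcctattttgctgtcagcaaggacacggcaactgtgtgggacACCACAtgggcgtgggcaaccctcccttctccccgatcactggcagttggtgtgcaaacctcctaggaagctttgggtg
Ms4a3: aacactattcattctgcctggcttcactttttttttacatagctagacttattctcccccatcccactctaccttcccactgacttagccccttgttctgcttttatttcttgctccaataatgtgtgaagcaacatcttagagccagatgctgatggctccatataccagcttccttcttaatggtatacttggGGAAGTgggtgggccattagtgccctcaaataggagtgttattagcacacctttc
The windows are chr11:87793534-87793580 for *Mpo*, chr10:79886062-79886246 for *Elane* and chr10:79879417-79879613 for *Prtn3*, the last within the annotated span of the gene but outside its exons. They are chr14:56102575-56102824 for *Ctsg* and chr19:11640852-11641101 for *Ms4a3*, both on the minus strand. PU.1 (*Spi1*), RUNX1, MYB and C/EBP proteins are known regulators of these genes, and their letters were searched on both strands over the whole 250 bases.

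GAGGAAGT was present in 3 of the 5 windows of 250 bases, and it began 224 bases before the start in *Mpo*, 85 in *Elane* and 95 in *Prtn3*. Of 32851 RefSeq promoter windows of that length, 2.44% held it. The shorter GGAAGT was in 5 of 5, at 205 bases in *Ctsg* and 55 in *Ms4a3*, and in 19.7% of all windows. The RUNX-type TGTGGT was in 1 of 5, *Ctsg* (4614 of the 32851 windows). The MYB-type CAACGG was in 2 of 5, *Elane* and *Prtn3*, within the exonic bases not printed (4.05% of all windows). The C/EBP-type TTGCNNAA was in 0 of 5 (9.56% of all windows). *Elane* and *Prtn3* are neighbouring serine protease genes, so their matches need not be independent. All matches describe the letters only, and no binding was measured.

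Library totals were between 20451312 and 28038612 counted reads. Values are given as CPM, counts per 1000000 after TMM normalization over the 12 libraries, and the 14894 genes that exceeded 0.5 CPM in 2 or more libraries were tested. Log2 fold changes, their standard errors (SE) and adjusted p-values are from edgeR's quasi-likelihood test on the 8 libraries compared. The Benjamini-Hochberg adjustment covered all tested genes, and genes under 0.05 are called changed. Of all genes tested, 6.50% were lower and 7.00% higher at 50 µM than with vehicle, and the median log2 fold change over all genes was 0.01.

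All but *Prss57* (mean 24.0 CPM) were abundant in vehicle cultures. Together the 6 genes held 1944 ± 345 CPM (SD, n = 4) with vehicle, 1657 ± 74.5 CPM at 10 µM and 978 ± 148 CPM at 50 µM. The sum was between 1645 and 2376 CPM with vehicle and between 789 and 1126 CPM at 50 µM, without overlap. Per kb of exon, mean levels in vehicle were highest for *Elane* (348 ± 82.6 CPM per kb), followed by *Prtn3* (253 ± 47.8), *Ctsg* (203 ± 28.7), *Mpo* (182 ± 31.5), *Ms4a3* (163 ± 24.2) and *Prss57* (8.45 ± 1.71). The ranges of each gene and the next overlapped, except for *Ms4a3* and *Prss57*. At 50 µM the order on this per-length scale began with *Ctsg* (149 ± 26.6 CPM per kb), ahead of *Elane* (142 ± 31.9) and *Prtn3* (130.3 ± 17.4), and the ranges of these 3 genes overlapped from each to the next.

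At 50 µM all 6 genes fell against vehicle, where 6.50% of all genes did. For each of the 6, every 50 µM library lay below every vehicle library, as it did for 10.5% of all genes tested. The median log2 fold change of the 6 was -0.99. In bulk RNA from a mixed culture, fewer cells of a type and less RNA per cell cannot be told apart.

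**Figure D1:**
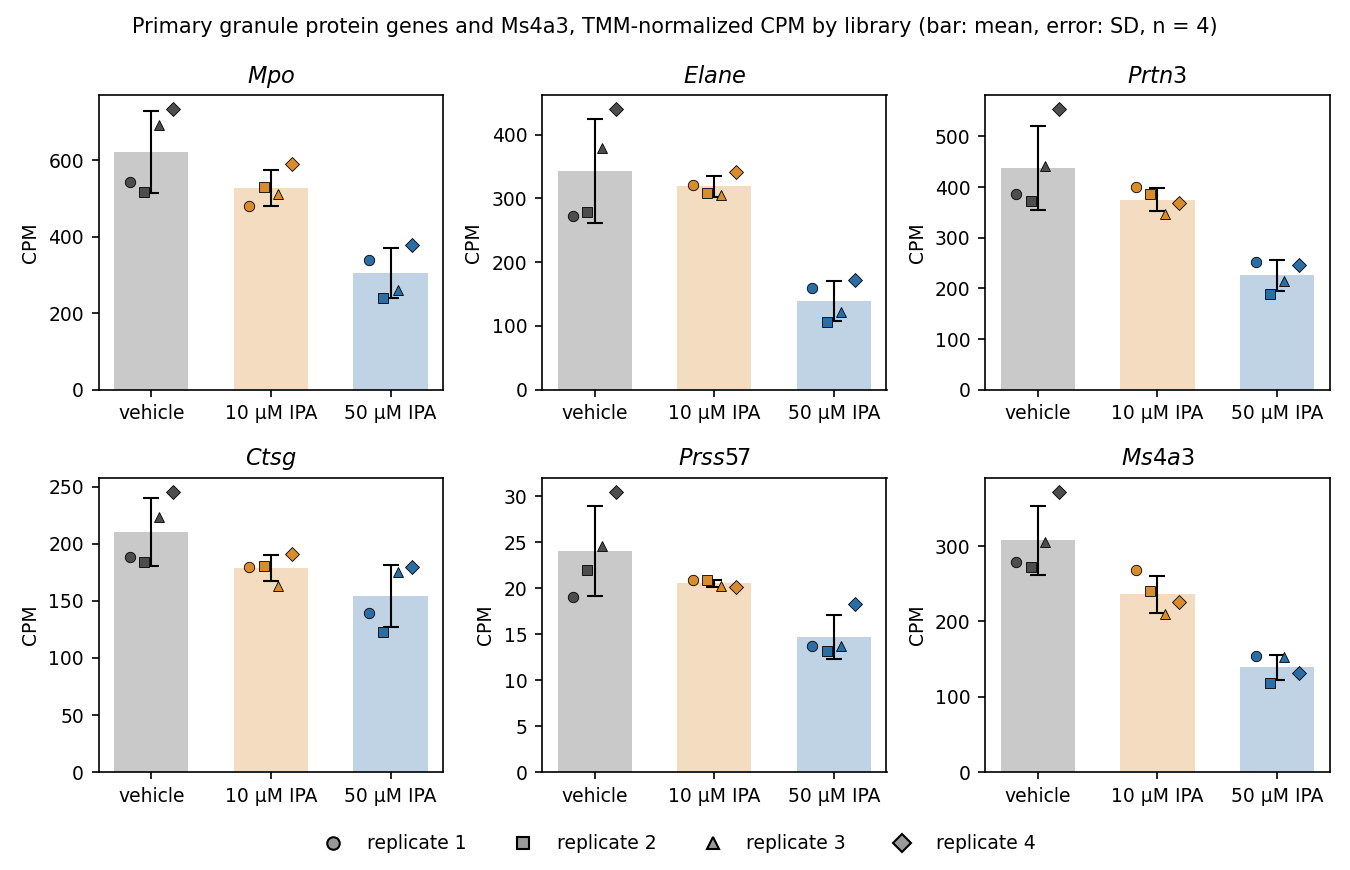
TMM-normalized CPM (vertical axis, from 0) of the 6 genes in the 12 libraries, by group. Bars are means of 4 libraries, error bars SD, and symbols single libraries by replicate number. All 50 µM symbols lie below all vehicle symbols in every panel, while 10 µM symbols lie below all vehicle symbols only for *Ms4a3*.

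*Mpo*, the peroxidase of the granule, was at 542, 517, 693 and 734 CPM in vehicle replicates 1 to 4. It was at 480, 529, 513 and 591 CPM at 10 µM and at 339, 241, 262 and 379 CPM at 50 µM. The 50 µM libraries were below all others, and the 10 µM libraries overlapped those with vehicle. Its mean at 50 µM, 305 ± 64.9 CPM (SD, n = 4), was 49.1% of the vehicle mean of 622 ± 108 CPM. This gave a log2 fold change of -1.02 (SE = 0.15, edgeR adjusted p = 0.000622).

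*Elane*, which encodes neutrophil elastase, was at 273, 278, 379 and 440.0 CPM in the vehicle libraries. It was at 322, 308, 305 and 341 CPM at 10 µM and at 159.9, 105, 121 and 172 CPM at 50 µM. Again the 50 µM libraries stood below the rest. The mean at 50 µM was 40.7% of the vehicle mean of 343 ± 81.3 CPM, the smallest percentage among the 6 genes. Its log2 fold change, -1.29 (SE = 0.17, edgeR adjusted p = 0.000354), was the 141st lowest of the 14894 genes tested.

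*Prtn3*, the gene for proteinase 3, was at 386, 371.5, 441 and 554 CPM with vehicle. It was at 400.1, 385, 347 and 368 CPM at 10 µM and at 253, 188, 215 and 247 CPM at 50 µM. No 50 µM library reached the lowest library of either other group. Against vehicle, the log2 fold change at 50 µM was -0.95 (SE = 0.13, edgeR adjusted p = 0.00035). *Plppr3*, a gene on the opposite strand, overlaps *Prtn3*, and since no source says whether counting used the strand, reads of these 2 genes may not be separated. *Plppr3* had at most 1014 counts in a library, and its log2 fold change at 50 µM was -0.14 (adjusted p = 0.494).

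*Prss57* was the least abundant of the proteases, at 19.1, 22.0, 24.5 and 30.5 CPM with vehicle. It was at 20.9, 20.9, 20.2 and 20.2 CPM at 10 µM and at 13.7, 13.1, 13.7 and 18.3 CPM at 50 µM. Replicate 4 at 50 µM stood above the other 3 but below every vehicle and 10 µM library. On the log2 scale the 50 µM group differed from vehicle by -0.70 (SE = 0.15, edgeR adjusted p = 0.00775). *Fstl3*, which overlaps it on the opposite strand, had at most 26 counts in a library.

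*Ctsg*, which encodes cathepsin G, changed least of the 6 at 50 µM against vehicle. It was at 188, 184, 223 and 246 CPM with vehicle, at 179, 181, 163 and 191 CPM at 10 µM, and at 139.7, 123, 175 and 179 CPM at 50 µM. Replicates 3 and 4 at 50 µM lay close to the lowest vehicle library. The difference of 50 µM from vehicle was -0.44 on the log2 scale (SE = 0.13, edgeR adjusted p = 0.0370), and the mean was 73.4% of that with vehicle. This call depended on single libraries: the adjusted p was 0.107 without vehicle replicate 3, 0.0912 without 50 µM replicate 1 and 0.0985 without 50 µM replicate 2. The other 5 genes were called whichever of the 8 libraries was left out.

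*Ms4a3*, the progenitor gene, was at 279, 272, 305 and 372 CPM with vehicle. It was at 268, 241, 210.1 and 226 CPM at 10 µM and at 154, 119, 152 and 131 CPM at 50 µM. The 3 groups did not overlap, with vehicle highest and 50 µM lowest. The log2 fold change at 50 µM against vehicle was -1.14 (SE = 0.11, edgeR adjusted p = 3.32e-05), the smallest adjusted p of the 6.

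At 10 µM none of the 6 genes passed the threshold of edgeR's test against vehicle. Of all genes tested, 0.0806% were lower and 0.329% higher. All 6 log2 fold changes were below 0, with a median of -0.23, where the median over all genes was -0.01, and 2 of the 6 had an unadjusted p under 0.05. The largest was that of *Ms4a3*, -0.38 (SE = 0.11, edgeR adjusted p = 0.213), and the only one with every 10 µM library below every vehicle library, which held for 2.56% of all genes. DESeq2 called it (adjusted p = 0.0407), and limma-voom called 0 of the 6. The study, which used DESeq2 for this comparison, names *Ms4a3* among the genes reduced at 10 µM. *Ctsg*, *Mpo*, *Prss57* and *Prtn3* had log2 fold changes of -0.24, -0.24, -0.23 and -0.22, and adjusted p-values between 0.475 and 0.686 from edgeR's test. These sizes rested in part on vehicle replicate 4, the highest vehicle library, and without it they were -0.15, -0.15, -0.0887 and -0.0918. *Elane* had the smallest difference, -0.10 (SE = 0.14, edgeR adjusted p = 0.910), and its sign turned (to 0.0397) when vehicle replicate 4 was left out.

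Between the doses, 5 of the 6 genes were lower at 50 µM than at 10 µM, where 7.85% of all genes were lower and 7.52% higher. The same 5 separated the doses with no overlap, as 10.9% of all genes did in this direction. *Elane* had the largest difference, a log2 fold change of -1.19 (SE = 0.12, edgeR adjusted p = 6.55e-06). It was -0.79 for *Mpo*, -0.76 for *Ms4a3*, -0.73 for *Prtn3* and -0.48 for *Prss57*, with adjusted p-values of at most 0.00755 from edgeR's test. *Ctsg* did not pass, with a log2 fold change of -0.21 (SE = 0.10, edgeR adjusted p = 0.193) and overlapping doses, and the value was -0.11 without 50 µM replicate 2. The median of the 6 was -0.75. This comparison shares its 50 µM libraries with that against vehicle.

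**Figure D2:**
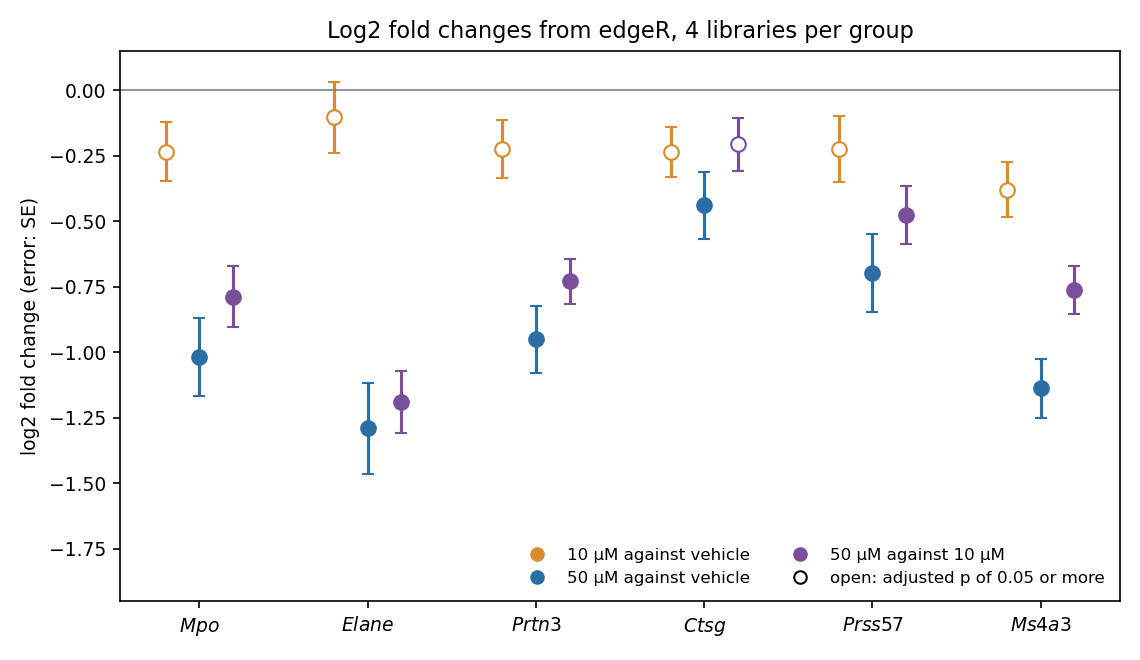
Log2 fold changes of the 6 genes from edgeR in the 3 comparisons, with standard errors. Filled symbols had an adjusted p under 0.05. The symbols for 10 µM against vehicle lie between -0.38 and -0.10 and are all open, and those for 50 µM against vehicle lie between -1.29 and -0.44 and are all filled.

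Ratios between the 6 transcripts within a library do not depend on its normalization. The 15 pairs were compared by two-sided exact permutation tests on log2 ratios, a comparison chosen after the values had been seen. *Elane* was 1.61 times the CPM of *Ctsg* with vehicle (geometric mean, range 1.45 to 1.79), 1.79 times at 10 µM (range 1.71 to 1.87) and 0.898 times at 50 µM (range 0.692 to 1.14). *Mpo* was 2.95 times *Ctsg* with vehicle (range 2.82 to 3.10) and 1.97 times at 50 µM (range 1.49 to 2.43). *Ctsg* was 0.684 times *Ms4a3* with vehicle (range 0.660 to 0.732) and between 0.909 and 1.37 times at 50 µM. Relative to *Mpo*, *Elane*, *Prtn3* and *Ms4a3*, the level of *Ctsg* was higher in every 50 µM library than in any vehicle library.

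Among the peroxidase and the serine proteases themselves, *Mpo* was 1.83 times *Elane* with vehicle (range 1.67 to 1.99) and 2.19 times at 50 µM (range 2.12 to 2.29). *Elane* was 0.775 times *Prtn3* with vehicle (range 0.707 to 0.860) and 0.611 times at 50 µM (range 0.561 to 0.696). In all, 8 of the 15 ratios separated 50 µM from vehicle, each with an exact permutation p of 0.0286, the smallest this design allows. Adjusted over the 15 pairs, these were 0.0536, so 0 of the 15 passed 0.05. At 10 µM 1 ratio, *Prtn3* over *Ms4a3*, separated from vehicle (1.59 against 1.42 times). Its adjusted exact permutation p was 0.268, and 0 of the 15 passed there too.

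**Figure D3:**
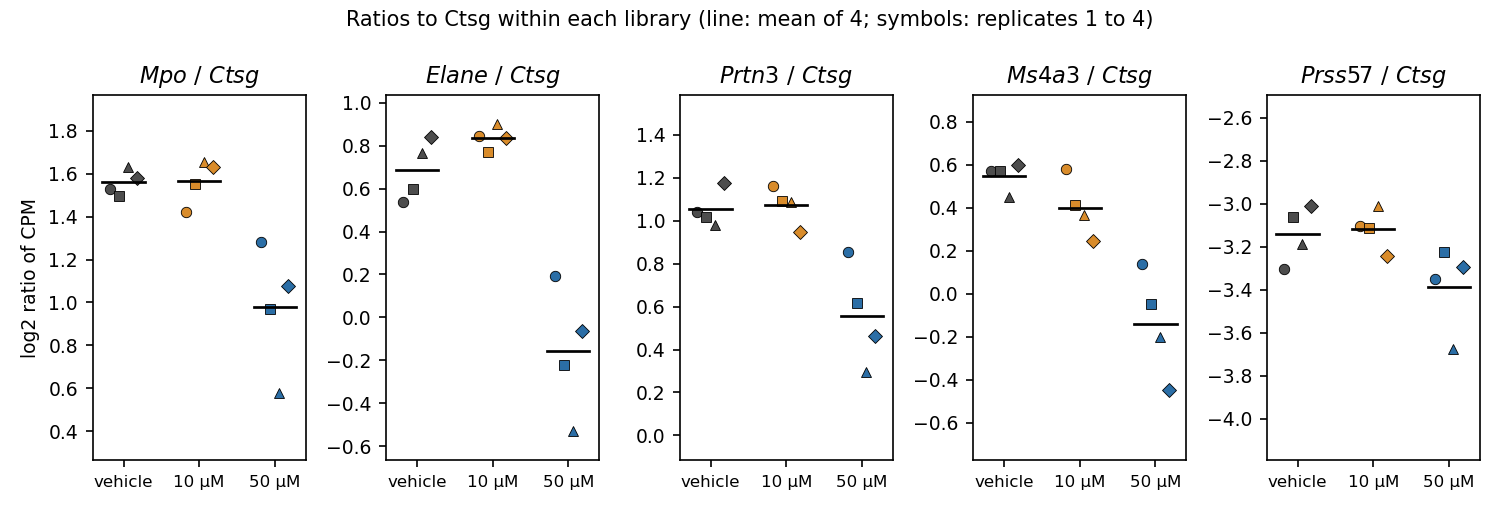
Log2 ratios of the CPM of 5 genes to that of *Ctsg* in each library (vertical axes of equal span), by group, with lines at the mean of 4 libraries. For *Mpo*, *Elane*, *Prtn3* and *Ms4a3* all 50 µM symbols lie below all vehicle symbols. For *Prss57* they overlap (exact permutation p = 0.0857).

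The genes also varied together among libraries of the same group. Vehicle replicate 4 was the highest and vehicle replicate 3 the next highest of its group for 6 of 6 genes. At 50 µM replicate 2 was the lowest for 6 of 6. At 10 µM no library was the highest for more than 3 of the genes. After each group's mean was taken from log2 CPM, Pearson's r over the 12 libraries was between 0.40 (*Mpo* and *Ms4a3*) and 0.95 (*Mpo* and *Elane*). This describes values that share libraries, depth and normalization.

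The 3 chromosome 10 genes allowed a look at the genes around them. The start of *Prtn3* lies 11.8 kb and that of *Prss57* 95.3 kb from that of *Elane*. Within 100 kb of the start of any of the 3 lie the starts of 16 other tested genes. Of these 16, edgeR called 0 at 50 µM against vehicle (4 with an unadjusted p under 0.05, 1 higher and 3 lower), and DESeq2 and limma-voom called 0. Their log2 fold changes were between -0.46 and 0.24, with a median of -0.07. At 10 µM edgeR, DESeq2 and limma-voom called 0 of the 16 against vehicle (3 with an unadjusted p under 0.05). *Palm*, the closest other start to *Prss57*, had a log2 fold change of 0.23 at 50 µM (edgeR adjusted p = 0.102). Between the doses edgeR called 2 of the 16, *Palm* higher at 50 µM (0.43, adjusted p = 0.00571) and *Bsg*, which encodes basigin, lower (-0.41, adjusted p = 0.00029).

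**Figure D4:**
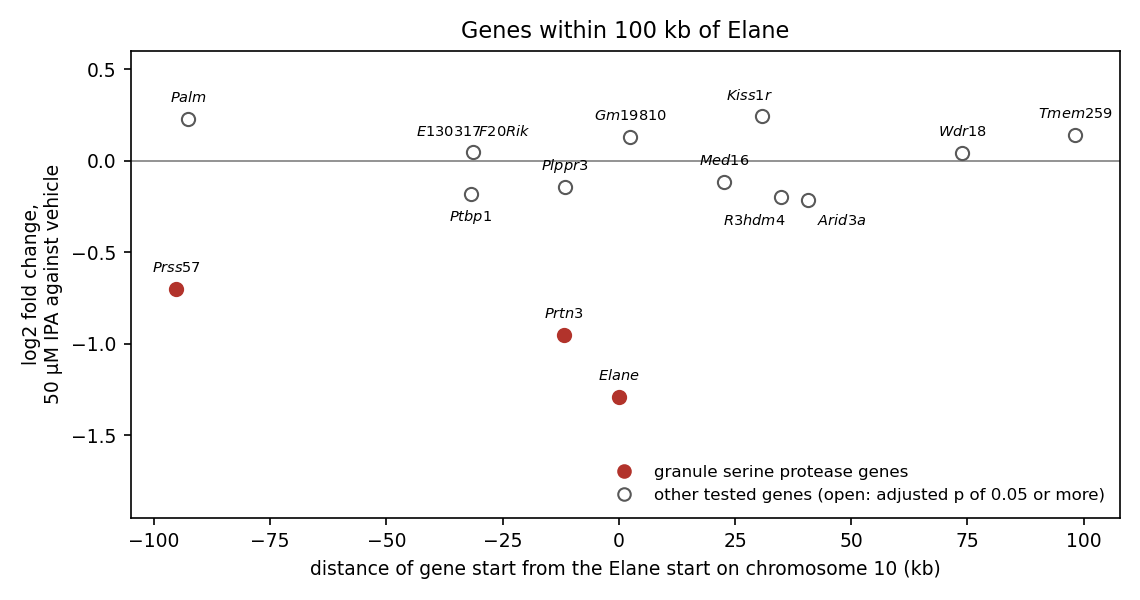
Log2 fold change at 50 µM against vehicle for tested genes whose start lies within 100 kb of that of *Elane*, by distance in kb. *Prss57*, *Prtn3* and *Elane* (filled) lie at -0.70, -0.95 and -1.29, and the 11 other genes (open) between -0.21 and 0.24.

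Around the remaining 3 genes, *Ms4a6d*, a neighbour of *Ms4a3* of the same family, fell at 50 µM (log2 fold change -0.84, edgeR adjusted p = 0.000173), from 83.7 to 46.6 CPM. *Ms4a2*, which encodes a subunit of the IgE receptor of basophils and mast cells, did not pass (-0.18, adjusted p = 0.452). *Tspoap1*, near *Mpo*, rose by 1.41 on the log2 scale (adjusted p = 0.0310), with means of 26.7 CPM with vehicle and 70.4 CPM at 50 µM. DESeq2 called 0 of the 5 other genes near *Mpo* there, *Tspoap1* included. *Epx*, the eosinophil peroxidase and a paralog of *Mpo* 82.0 kb from it, was at 508 CPM with vehicle and 438 CPM at 50 µM (log2 fold change -0.20, adjusted p = 0.280). *Mcpt8*, a basophil protease gene beside *Ctsg*, had a log2 fold change of -0.37 (adjusted p = 0.0691). *Lpo* and *Cfd*, relatives of *Mpo* and of the chromosome 10 proteases, had at most 13 and 4 counts in a library and were not tested.

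Genes that process, pack or inhibit the proteases did not move in 1 direction. Of 8, edgeR called 2 lower and 1 higher at 50 µM against vehicle, with a median log2 fold change of -0.02. *Ctsc*, whose product activates the granule serine proteases by removing a dipeptide, fell by 0.47 on the log2 scale (adjusted p = 0.00465), to 703 CPM at 50 µM from 978 CPM. *Serpinb1a*, an inhibitor of elastase, proteinase 3 and cathepsin G, fell by 0.49 on the log2 scale (edgeR adjusted p = 0.00397). *Serpinb6a*, an inhibitor of cathepsin G, rose at 50 µM (0.52, adjusted p = 0.00241) and at 10 µM (0.47, adjusted p = 0.0377), where it was the only gene of the list called. Serglycin (*Srgn*), the proteoglycan that holds granule proteases, had a log2 fold change of 0.09 at 50 µM (adjusted p = 0.680).

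Of 8 transcription factor genes that regulate granule genes, edgeR called 3 lower and 1 higher at 50 µM against vehicle (median -0.22). DESeq2 called 5 lower and limma-voom 4, each with 1 higher. *Myb*, which maintains proliferating progenitors and activates *Mpo* and *Elane*, fell by 0.58 on the log2 scale (edgeR adjusted p = 0.00176), with means of 54.2 CPM with vehicle and 36.1 CPM at 50 µM. *Gfi1*, a repressor needed for neutrophil formation, fell by 0.53 on the log2 scale (adjusted p = 0.0213), and *Cebpe*, which drives the step after the promyelocyte, by 0.31 (adjusted p = 0.0231). *Irf8*, which favours monocytes over neutrophils, rose by 0.40 on the log2 scale (adjusted p = 0.00142), with means of 86.5 CPM with vehicle and 114 CPM at 50 µM. *Spi1*, the gene for PU.1, and *Cebpa* did not pass (-0.12 and -0.13, adjusted p = 0.273 and 0.408). *Runx1* and *Cbfb* did not pass in edgeR either (-0.22 and -0.23, adjusted p = 0.0670 and 0.0541). For both, every 50 µM library lay below every vehicle library. At 10 µM edgeR called 0 of the 8 (3 lower with an unadjusted p under 0.05), DESeq2 2 and limma-voom 0.

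Of 8 other genes of early neutrophils, *Fcnb* and *Igsf6* fell at 50 µM and the median log2 fold change was -0.15. *Fcnb*, which encodes a ficolin of immature neutrophils, fell by 1.71 on the log2 scale (edgeR adjusted p = 1.81e-05), more than any of the 6, with means of 68.5 CPM with vehicle and 20.9 CPM at 50 µM. *Calr*, *Mgst1*, *Gstm1*, *Hdc*, *Cd63* and *Nkg7* did not pass. At 10 µM edgeR, DESeq2 and limma-voom called 0 of the 8 (1 lower with an unadjusted p under 0.05).

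Of 8 secondary granule genes, which are transcribed at the myelocyte stage, 5 fell at 50 µM and the median was -0.52. *Cd177* had the smallest adjusted p (log2 fold change -0.77, edgeR adjusted p = 0.00016), followed by the lactoferrin gene *Ltf* (-0.68, adjusted p = 0.000335) and *Hp*, the haptoglobin gene (-0.54, adjusted p = 0.00238). At 10 µM *Chil3* fell (-0.33, adjusted p = 0.0394). Of 8 genes of mature neutrophils, *Cxcr2* (-0.79, adjusted p = 0.000605) and *Csf3r* (-0.36, adjusted p = 0.0279) fell and *Mmp9* rose (0.33, adjusted p = 0.0109) at 50 µM, with a median of -0.32. At 10 µM edgeR, DESeq2 and limma-voom called 0 of these 8, and 0 had an unadjusted p under 0.05 in edgeR.

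Of 8 progenitor genes, *Kit* fell at 50 µM (log2 fold change -0.44, adjusted p = 0.0101), and *Gata2* (1.15, adjusted p = 3.00e-06) and *Cd34* (0.58, adjusted p = 0.000695) rose, with a median of -0.08. Of 8 genes of cycling cells, 4 fell at 50 µM, among them *Ccna2* (-0.39, adjusted p = 0.00569), *Tpx2* and *Plk1*, with a median of -0.26. In edgeR 7 of these 8 were lower with an unadjusted p under 0.05, and DESeq2 called 5 lower and limma-voom 4. The summed level of the cycling cell genes was between 1624 and 2431 CPM with vehicle and between 1621 and 1817 CPM at 50 µM. *Mki67*, which is part of this sum, varied from 5061 to 25848 counts over the 12 libraries. The part of dividing cells in the change of the 6 genes was not tested. At 10 µM edgeR, DESeq2 and limma-voom called 0 in both lists, and 0 had an unadjusted p under 0.05 in edgeR.

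**Figure D5:**
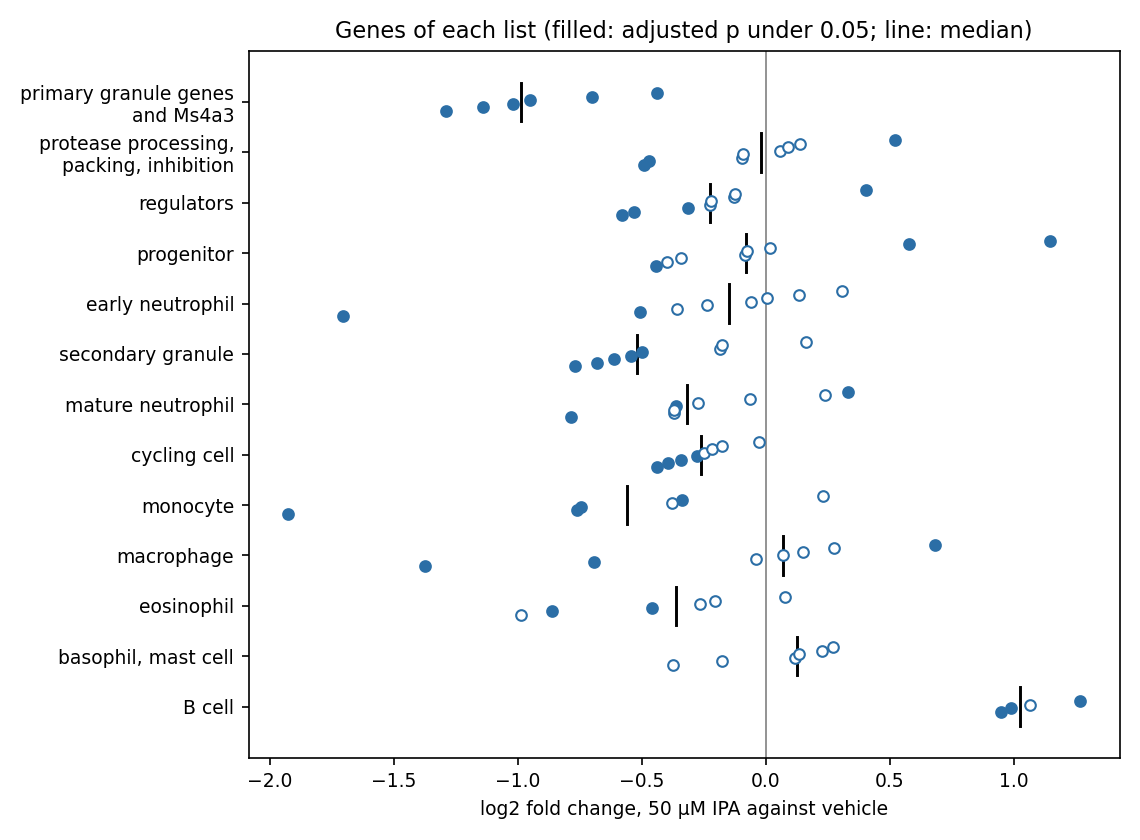
Log2 fold changes from edgeR at 50 µM against vehicle for the tested genes of 13 lists. Filled symbols had an adjusted p under 0.05 and black lines are medians. The median of the 6 primary granule stage genes, -0.99, is the lowest of the 13, followed by those of the monocyte (-0.56) and secondary granule lists (-0.52), and that of the B cell list, 1.03, is the highest.

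Markers of other cell types that the culture could hold were examined list by list. Of 6 monocyte genes, 4 fell at 50 µM (median -0.56), among them *Vcan* (-0.74, adjusted p = 0.000818), *Ccr2* (-0.76, adjusted p = 0.00153) and *F13a1* (-1.92, adjusted p = 0.00357), and at 10 µM 1, *Fn1*, rose (0.82, adjusted p = 0.0102). Their summed level was 3433 to 4161 CPM with vehicle, 4683 to 5757 at 10 µM and 2886 to 3759 at 50 µM. Of 7 macrophage genes, 1 rose at 50 µM, *Adgre1* (0.68, adjusted p = 7.48e-05), and 2 fell, *Mrc1* (-0.69, adjusted p = 0.00232) and *Apoe*. At 10 µM 2 rose, *Mrc1* (adjusted p = 0.0374) and *C1qb* (adjusted p = 0.0474). Their sums were 777 to 949.9 CPM with vehicle, 1054 to 1190.0 at 10 µM and 974 to 1020.1 at 50 µM. The part of these cells in the values of the 6 genes was not tested.

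Of 4 B cell genes, 3 rose at 50 µM (median 1.03). They were *Ms4a1* (1.27, adjusted p = 0.000324), *Cd79b* (0.95, adjusted p = 0.000699) and *Cd79a* (0.99, adjusted p = 0.00764). The 4 genes had sums of 14.96 to 19.9 CPM with vehicle and 28.6 to 45.1 CPM at 50 µM. Of 6 eosinophil genes, *Ear6* (-0.86, adjusted p = 0.000262) and *Prg3* (-0.46, adjusted p = 0.0293) fell at 50 µM, with sums of 1090 to 1347 CPM with vehicle and 842 to 1131 CPM at 50 µM. At 10 µM edgeR called 0 of the 4 B cell genes (1 higher with an unadjusted p under 0.05, 0 by DESeq2 and limma-voom) and 0 of the 6 eosinophil genes (4 lower, 1 by DESeq2 and 0 by limma-voom). Of 6 basophil and mast cell genes edgeR called 0 at 50 µM (1 lower with an unadjusted p under 0.05, 1 by DESeq2 and 0 by limma-voom) and 0 at 10 µM (3 lower, 0 by DESeq2 and limma-voom). The most abundant of these was *Prss34*, at 148 CPM with vehicle and 177 CPM at 50 µM. Their part in the values of the 6 genes was not tested either. T and NK cell genes were at 0 to 13 counts and 0 of 5 were tested, and of 5 erythroid genes only *Hba-a1* was tested, with at most 24 counts in a library.

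The same lists were also compared between the doses. At 50 µM against 10 µM edgeR called 6 of the 6 monocyte genes lower, with a median log2 fold change of -0.77 beside -0.75 for the 6 granule stage genes. Of the 7 macrophage genes, 5 were lower (*Mrc1*, *Apoe*, *C1qa*, *C1qb* and *C1qc*) and *Adgre1* was higher, with a median of -0.33. Of the secondary granule genes 4 of 8 were lower (median -0.33), of the early neutrophil genes 3 were lower and 1 higher, and of the cycling cell genes 3 were lower. The B cell list had 3 of 4 genes higher (median 0.68), the basophil and mast cell list 2 of 6 higher and the eosinophil list 1 of 6 lower. Of the mature neutrophil genes 2 were lower and 1 higher, and of the progenitor genes 2 were higher. Among the genes that process, pack or inhibit the proteases 2 were lower, and among the regulators 1 was lower and 1 higher. The part of monocytes and macrophages in the difference of the 6 genes between the doses was not tested.

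The genes most like the 6 across libraries were sought among those with a mean of at least 1 CPM. Likeness was Pearson's r of log2 CPM with the mean of the standardized values of the 6, over 12 libraries that include the difference between the groups. The 8 closest were *Cd177* (r = 0.98), *Slc40a1* (0.98), *Cited2* (0.98), *Pdlim2* (0.97), *Plac8* (0.97), *Lrg1* (0.97), *Scarb1* (0.97) and *Eid1* (0.97). *Plac8* went from 214 CPM with vehicle to 185 at 10 µM and 108 at 50 µM, and *Slc40a1*, which encodes the iron exporter ferroportin, from 67.6 to 57.9 and 46.9 CPM. *Lrg1*, which encodes a secreted glycoprotein of neutrophil granules, went from 158 to 145 and 93.9 CPM.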

How the data were processed

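Stranded mRNA libraries (4 per group) were sequenced from bone marrow cultures harvested on day 5. The authors used Atropos for trimming, HISAT2 2.2.1 for alignment to mm10 and featureCounts 2.0.1 on Ensembl genes, and the deposited values are raw counts. The strand setting of the counting is not given in the sources used here. Groups were taken from the treatment labels. The titles of 2 of the 10 µM samples give the same replicate number and differ only in a suffix, so replicate 3 was named from its library name. The medium was changed every second day according to the methods and on the third day according to the labels.

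The 14894 genes above 0.5 CPM in 2 or more of the 12 libraries were tested with edgeR 4.0.16 (TMM, glmQLFit, glmQLFTest) in R 4.3.3 on the 8 libraries of each comparison. The standard error is the log2 fold change divided by the square root of F. Adjustment was by Benjamini-Hochberg over all genes tested. Scripts were tested on simulated data. The alternatives were DESeq2 1.42.0, limma-voom (limma 3.58.1), DESeq2's size factors, no filter, a minimum of 10 counts in all libraries, a fit of all 12 libraries, a replicate block and leaving out each library. Totals between 20451312 and 28038612 counts limit mainly genes of few counts, and each of the 6 genes had at least 281 counts in every library.

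The 6 genes and all lists were chosen with earlier results of these data known, and some genes of the macrophage and B cell lists are not reported here. The rule for named genes took the 6 genes with every library, from each list up to 3 genes past the threshold in each direction by smallest p or the 2 most abundant where none passed, the 8 most alike genes, neighbours within 100 kb and paralogs. Other genes are named where a count would otherwise not be clear. Exact permutation tests used scipy 1.17.1, and exon lengths and positions are those of GENCODE M21, and plots were drawn with matplotlib 3.10.9.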

Additional observations from a re-analysis of the deposited data

Results flagged for a closer look

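*Prss57* at 50 µM had 1 library far from the others. Replicate 4 was at 18.3 CPM and the other 3 were between 13.1 and 13.7 CPM, a gap of 0.889 of the group's range, which is past Dixon's 95% critical value for 4 values. In all, 18 sets of 4 values were checked, and chance flags about 1 in 20. Without this library the log2 fold change at 50 µM against vehicle was -0.82, and it stayed past the threshold whichever of the 8 libraries was left out, with adjusted p-values between 0.00481 and 0.0304 from edgeR's test. The same library was the highest of its group for 4 of the 6 genes.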

How the results depend on the processing

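At 50 µM against vehicle, 6 of the 6 genes were called under every alternative on all 8 libraries, and 5 or 6 when 1 library was left out (5 without vehicle replicate 3, 50 µM replicate 1 or 50 µM replicate 2, where *Ctsg* missed). Over all genes the count was 2010, between 1247 (without vehicle replicate 3) and 2689 (without vehicle replicate 4). Between the doses, 5 of the 6 were called, and 6 with no filter, where *Ctsg* had an adjusted p of 0.0499. At 10 µM against vehicle, the 6 genes had 0 calls except 1 with DESeq2 (*Ms4a3*). The count over all genes at 10 µM, 61, depended on the setting. It was 250 with DESeq2, 150 with no filter, 118 with all 12 libraries in the fit and between 4 (without 10 µM replicate 2) and 122 (without vehicle replicate 4) when 1 library was left out, and the cause was not tested. With the replicate block it was 3. The same-numbered libraries did not deviate together (r between -0.24 and 0.14 over 12 pairs), which cannot show whether they share a donor or culture day. For viability and monocyte share in such cultures the study used repeated-measures tests across the doses. It does not say whether the RNA-seq libraries were matched in this way. The block changed no call among the 6 genes, and *Ctsg* at 50 µM had an adjusted p of 0.0032 with it in edgeR's test. Of 270 log2 fold changes of the 6 genes under the alternatives, 264 kept their direction and side of the threshold. The sign turned in 1, *Elane* at 10 µM without vehicle replicate 4 (0.0397, in a range from -0.20 when 1 library was left out). *Prss57* rests on the fewest reads of the 6, 281 to 768 counts per library, and *Mpo* on the most, 5391 to 18474.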
